A study of Homo sapiens with 19 samples.

Results

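Transcripts of the mucous barrier were followed through single-cell RNA libraries of human liver organoids: the trefoil factors TFF1, TFF2 and TFF3, the membrane mucins MUC1 and MUC13, the gel-forming mucins MUC5AC, MUC5B and MUC2, and AGR2. The 9 genes were matched by Ensembl identifier among the 32703 genes listed in every library. The organoids (HLOs) were grown from W01, an established wild-type human pluripotent stem cell line from WiCell, so every group shares 1 genotype and 1 line. There were 19 libraries in 9 groups, made with 10x Genomics 3′ version 3 chemistry, which tags each captured RNA molecule with a unique molecular identifier (UMI) and reads its 3′ end.

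Organoids in the ULA format, an abbreviation the labels do not spell out, received no treatment, with 3 libraries from day 21 and 2 from day 34. Organoids in the OS format, likewise not spelled out, were sampled on day 25 in 7 groups of 2 libraries. These were untreated organoids, organoids that received 10 ng/ml TGFB1, a cytokine of the transforming growth factor β family, with their control, 500 µM PA with its control, and 500 µM OA with its control. The labels describe 20 days of culture and then 5 days of treatment for OS organoids, and name TGFB1 and PA there, while OA appears in other labels. PA and OA are kept as the labels write them, and what the controls received is not stated in the labels. Day 34 ULA and day 25 OS organoids were washed once more and kept 10 minutes longer in trypsin than day 21 ULA organoids. The labels do not say whether replicates came from separate cultures, so p-values measure only the spread between these libraries, which may be technical.

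Trefoil factors are small secreted peptides, held together by disulfide bonds, that mucous cells release with mucins and that act in repair of mucosal surfaces. Gel-forming mucins build the mucus layer itself, membrane mucins stay anchored in the apical cell surface, and AGR2 is a protein disulfide isomerase of the endoplasmic reticulum that gel-forming mucins such as MUC2 need for their assembly. In the adult liver these genes are known mainly from bile duct epithelium and its glands. In the gut TFF1, TFF2 and MUC5AC mark gastric surface and gland mucous cells, while TFF3 and MUC2 mark intestinal goblet cells.

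Libraries held 6880807 to 91184130 UMIs in 3089 to 12427 cells. Cells were kept if they had 500 genes or more and if mitochondrial transcripts were no more than 20% of their UMIs. Median depth ran from 1310 to 14304.5 UMIs per cell. Pairs of libraries shared cell barcodes for at most 0.553% of the smaller library, and no replicates held identical values. Levels are given as CPM, the UMIs of a gene divided by all UMIs of the library and multiplied by 1000000. Where a level is given for a set of cells, both counts are taken over those cells alone. Hepatocyte markers were present in every group, with a summed level of 12 such genes between 492 CPM on ULA day 34 and 24061 with OA (group means). ALB, the defining hepatocyte transcript, was low in many libraries, at 0.0396 and 0.316 CPM on ULA day 34 and 0.136 and 0.102 with TGFB1. A list of 10 intestinal epithelial markers ran from 25.3 CPM on ULA day 34 to 18716 with OA.

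On GRCh38, with GENCODE v44 gene positions, the trefoil genes lie side by side on the minus strand of chromosome 21: TFF3 at 42311667 to 42315409, TFF2 at 42346357 to 42350997 and TFF1 at 42362282 to 42366535. The gel-forming mucin genes form a cluster on the plus strand of chromosome 11, with MUC2 at 1074875 to 1110511, MUC5AC at 1157953 to 1201138 and MUC5B at 1223066 to 1262172. MUC1 lies on chromosome 1 at 155185824 to 155192916, MUC13 on chromosome 3 at 124905442 to 124953819 and AGR2 on chromosome 7 at 16791811 to 16833433, each on the minus strand. RefSeq promoter sequence (GRCh38.p14) was matched for 4 of the 9 genes, MUC1, MUC13, MUC2 and AGR2. The 250 bases before the start site are shown for MUC1, MUC13 and AGR2, the matched genes whose level changed in opposite directions with TGFB1 and with OA as described further on. Capitals mark matches to 8 motifs searched on both strands: the box TATAAA near many start sites, the box written CCAAT, the box GGGCGG bound by SP proteins, the FOXA motif TGTTTAC, the motif GATAAG of GATA factors, the half-site GTTAAT of HNF1, the motif TGANTCA of AP-1, and DR1, which repeats AGGTCA after a gap of 1 base.
MUC1, chr1:155192916-155193165, minus strand, 1 of 2 RefSeq entries: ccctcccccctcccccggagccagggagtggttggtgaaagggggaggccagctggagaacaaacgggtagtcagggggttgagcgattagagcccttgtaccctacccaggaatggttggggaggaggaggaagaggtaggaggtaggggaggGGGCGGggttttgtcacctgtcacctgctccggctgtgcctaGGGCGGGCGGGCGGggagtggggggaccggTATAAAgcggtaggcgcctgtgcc
MUC13, chr3:124934752-124935001, minus strand: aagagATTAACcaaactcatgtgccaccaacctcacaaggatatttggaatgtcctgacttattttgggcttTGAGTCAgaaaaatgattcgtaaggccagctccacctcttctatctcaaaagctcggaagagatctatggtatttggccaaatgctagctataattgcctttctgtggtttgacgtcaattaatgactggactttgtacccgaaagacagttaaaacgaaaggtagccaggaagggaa
AGR2, chr7:16805000-16805249, minus strand: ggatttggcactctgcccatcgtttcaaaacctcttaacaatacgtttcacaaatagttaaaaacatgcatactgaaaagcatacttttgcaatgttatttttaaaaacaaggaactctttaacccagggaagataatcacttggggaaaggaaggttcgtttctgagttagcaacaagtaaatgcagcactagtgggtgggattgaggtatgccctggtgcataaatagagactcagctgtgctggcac

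The MUC1 sequence held the TATAAA box (TATA box), starting 24 bases before the start site, and 4 copies of GGGCGG (GC box), 3 of which overlap. In MUC13 an HNF1 half-site on the opposite strand, 245 bases before the start site, and an AP-1 match 178 bases before it were found, and AGR2 held none of the 8 motifs. Among the same 250 bases of 27305 genes in the table, a TATA box was found in 11.1%, a GC box in 42.3%, an HNF1 half-site in 6.22% and an AP-1 match in 6.60%. The 3 sequences therefore shared no searched motif. A match is a string of letters, and its presence or absence says nothing of binding.

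The members' levels were compared between cells with epithelial markers and cells with mesenchymal markers. Cells with at least 3 of 12 epithelial markers and fewer than 3 of 12 mesenchymal markers detected were called epithelial-marker cells, and the reverse rule gave mesenchymal-marker cells. AGR2 ran from 53.1 to 2149 CPM in epithelial-marker cells (median 679) and from 0.332 to 95.3 in mesenchymal-marker cells (median 6.26). For TFF1 the medians over libraries were 119 and 1.70, for TFF2 41.5 and 0.119, and for TFF3 440.0 and 3.00. TFF1, TFF3, MUC1, MUC13 and AGR2 were higher in epithelial-marker cells in 19 of 19 libraries, and TFF2 and MUC2 in 18. MUC5AC had a UMI in only 14 libraries and was higher in epithelial-marker cells in each of these. It was not seen in a mesenchymal-marker cell of any library. Its mean was 30.1 CPM with OA, where only 26 and 16 cells were in that class, and at most 0.727 in any other group. With so few cells or UMIs, its absence from mesenchymal-marker cells says little. Free RNA gives low counts in droplets of any cell type, and its part in the level of mesenchymal-marker cells was not tested. None of the members is among the markers of either class. Cells with at least 3 markers of each kind stand in neither class, and held from 0.142% to 75.3% of a library's AGR2 UMIs (median 12.2%) and from 1.33% to 86.9% of its MUC1 UMIs (median 14.8%). Both highest shares were in ULA day 34 replicate 1.

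**Figure D1:**
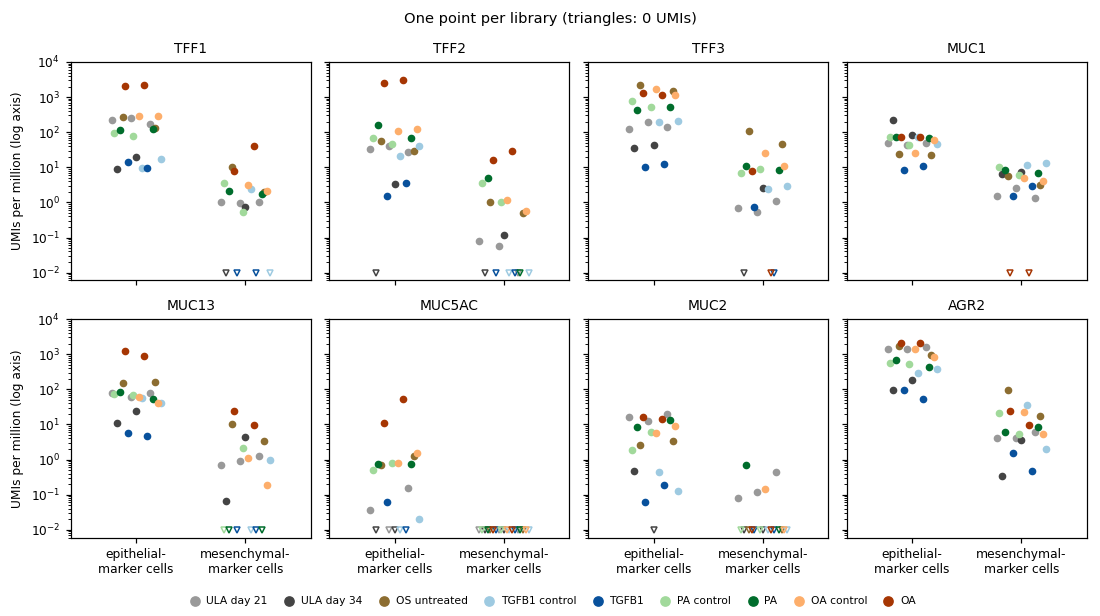
CPM (log axis) of 8 members in epithelial-marker cells and in mesenchymal-marker cells, 1 point per library, coloured by group, with triangles for 0 UMIs. AGR2 has a median of 679 in the first class and 6.26 in the second. MUC5AC has no UMI in mesenchymal-marker cells, of which the OA libraries, where it is highest, hold only 26 and 16.

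Most members had their highest group mean with OA and their lowest with TGFB1 or on ULA day 34. TFF1, TFF2, MUC1, MUC13, MUC5AC, MUC2 and AGR2 all had their highest group mean with OA. For each of these but MUC1 the lowest OA library was above the highest library of every other group. The share of all genes whose groups are separate was not counted, here and wherever groups are said not to overlap. Groups of unlike format, day and experiment are ranked together here, and the ranks cannot be told apart from those differences. MUC1 was at 69.3 and 70.4 CPM with OA, below the 71.2 of 1 TGFB1 control library. TFF3 did not follow this order. Its mean was 1499 ± 782 CPM (SD, n = 2) in untreated OS organoids, 1204 ± 43.0 with OA and 1103 ± 481 in the OA control, and these 3 groups overlapped. At the other end, TFF3, MUC1, MUC13 and MUC2 were lowest with TGFB1, and TFF1, TFF2, MUC5AC and AGR2 on ULA day 34. The lowest 2 groups, TGFB1 and ULA day 34, overlapped for TFF1, TFF3, MUC13, MUC2 and AGR2. MUC5B was close to absent, with 9 UMIs in all libraries together and no more than 2 in any library, and it was not tested. Where a library has 0 UMIs of a gene, up to 3 UMIs in that library's total remain possible, from counting error alone.

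**Figure D2:**
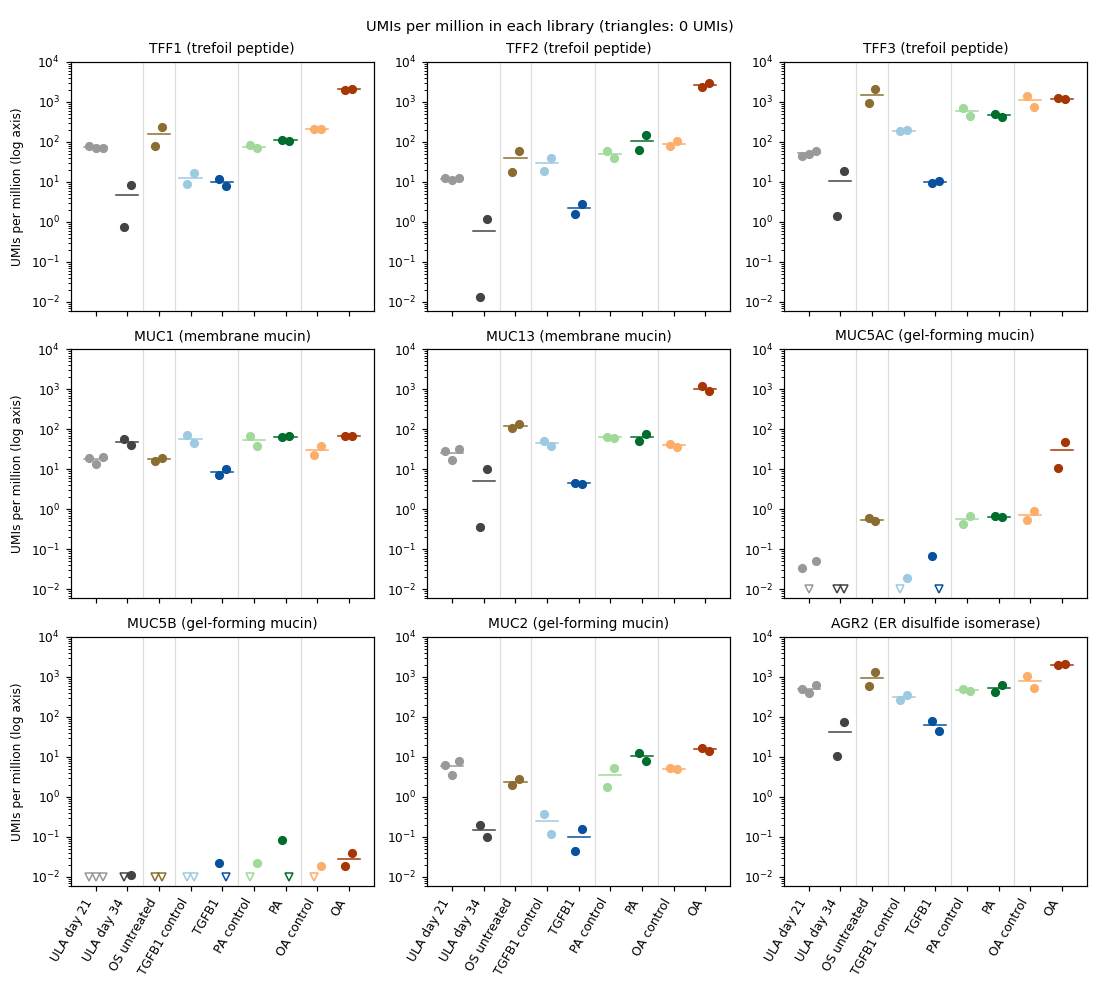
CPM (log axis) of each member in each of the 19 libraries, by group, with a line at the group mean and triangles for 0 UMIs. TFF2 reaches 2362 and 2985 with OA against 77.9 and 103 in its control, while TFF3 falls from 187 and 196 in the TGFB1 control to 9.20 and 10.4 with TGFB1.

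With OA at 500 µM, 7 of the 8 members tested rose against the OA control and none fell. The rise was largest for MUC5AC, TFF2 and MUC13, with log2 fold changes above 5, and TFF3 stood apart with no detected change. Of all 19361 genes tested, 43.3% were called in either direction and 21.7% higher, so a call alone is common in this comparison. Of the calls 50.1% were higher, and 30.6% with total-count scaling. The median log2 fold change was 2.77 over the 8 members tested and -0.08 over all genes tested. Sums over a library do not tell apart fewer cells of a type and less RNA per cell, here and in every comparison of whole libraries.

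Among the trefoil factors, TFF1 was at 216 and 211 CPM in the OA control libraries and at 1963 and 2156 with OA. TFF2, the trefoil peptide of gastric gland mucous cells, went from 77.9 and 103 to 2362 and 2985. The groups did not overlap for either gene, and replicates differed far less than the groups. The log2 fold changes were 3.61 ± 0.50 (SE, adjusted p = 9.48e-05, edgeR) for TFF1 and 5.23 ± 0.67 (adjusted p = 5.82e-05, edgeR) for TFF2. TFF3, the trefoil peptide of intestinal goblet cells, was at 1443 and 763 in the control and at 1235 and 1174 with OA. Here the OA libraries lay inside the spread of the control libraries, and the log2 fold change of 0.44 ± 0.41 did not pass the test (adjusted p = 0.413, edgeR).

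Of the membrane mucins, MUC13, an intestinal surface mucin, was at 43.3 and 37.3 CPM in the control and at 1202 and 892 with OA. MUC1, found on many ductal and glandular epithelia, was at 23.3 and 37.5 and then at 69.3 and 70.4. Neither pair of groups overlapped, but the sizes differed. MUC13 rose by 5.03 ± 0.32 on the log2 scale (adjusted p = 5.52e-07, edgeR) and MUC1 by 1.56 ± 0.30 (adjusted p = 0.00117, edgeR).

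Of the gel-forming mucins, MUC5AC, the mucin of gastric surface cells, was at 0.558 and 0.897 CPM in the control, from 31 and 47 UMIs. With OA it was at 10.7 and 49.4, from 578 and 2573 UMIs. The OA libraries were both above the control libraries but differed from each other more than for any other member. Its log2 fold change was 5.71 ± 0.62 (adjusted p = 1.74e-05, edgeR) and was 4.25 without OA replicate 2 and 6.42 without OA replicate 1. MUC2, the main mucin of intestinal goblet cells, went from 5.16 and 4.92 to 17.0 and 13.7, a log2 fold change of 1.94 ± 0.41 (adjusted p = 0.00191, edgeR). AGR2 was at 1047 and 530 in the control and at 1965 and 2077 with OA. Its groups did not overlap, and its log2 fold change was 1.67 ± 0.47 (adjusted p = 0.0114, edgeR), although without OA control replicate 2 it was 1.21 with an adjusted p of 0.117, and without OA control replicate 1 it was 2.35.

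The composition of the libraries moved with OA. Mesenchymal-marker cells made up 26.2% and 18.6% of cells in the control libraries and 0.842% and 0.496% with OA, while epithelial-marker cells went from 46.3% and 36.7% to 94.0% and 94.4%. Cells with at least 3 markers of each kind, in neither class, were 23.6% and 36.7% of control cells and 4.11% and 3.88% of OA cells. In OA control replicate 2 they held 57.5% of the MUC13 and 51.3% of the TFF2 UMIs. The mesenchymal list of 12 genes fell from a summed mean of 3864 CPM in the control to 132 with OA. The 10 intestinal markers went from 1772 and 872 to 20509 and 16923, and the 12 hepatocyte markers from 12672 and 9098 to 24376 and 23745, as levels. These are sums, and within the intestinal list the transcription factor CDX2 went from 45.6 and 32.7 to 56.3 and 54.4. The part of these lists in the members' rise was not tested.

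Within epithelial-marker cells the same 7 members were called higher with OA, where 36.3% of 17948 genes were called in either direction and 19.2% higher. TFF1 was at 289 and 297 CPM in these cells in the control and at 2064 and 2260 with OA, a log2 fold change of 3.11 ± 0.42 (adjusted p = 1.08e-04, edgeR). TFF2 had a log2 fold change of 4.83 ± 0.58, MUC13 of 4.67 ± 0.34 and MUC5AC of 5.08 ± 0.61. These 4 genes stayed called without each of the 4 libraries in turn. MUC1 (1.05 ± 0.33), MUC2 (1.31 ± 0.39) and AGR2 (1.11 ± 0.41) were smaller and less stable. MUC1 lost the call without OA replicate 1, OA replicate 2 or OA control replicate 1 (log2 fold changes 1.05, 1.06 and 0.61), and was at 1.69 without OA control replicate 2. MUC5AC was at 3.59 without OA replicate 2 and at 5.80 without OA replicate 1. For MUC2 the call was lost without OA replicate 1 (1.15) or OA control replicate 1 (1.06) and with a replicate block (adjusted p = 0.0507). AGR2 lost it without OA replicate 1 (1.12), OA replicate 2 (1.11) or OA control replicate 2 (0.73) and with a replicate block (adjusted p = 0.0918) or thresholds of 2 markers (1.09, adjusted p = 0.0584). TFF3 in these cells was at 1733 and 1154 in the control and 1280.1 and 1160.3 with OA, a log2 fold change of -0.03 ± 0.33 (adjusted p = 0.954, edgeR).

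**Figure D3:**
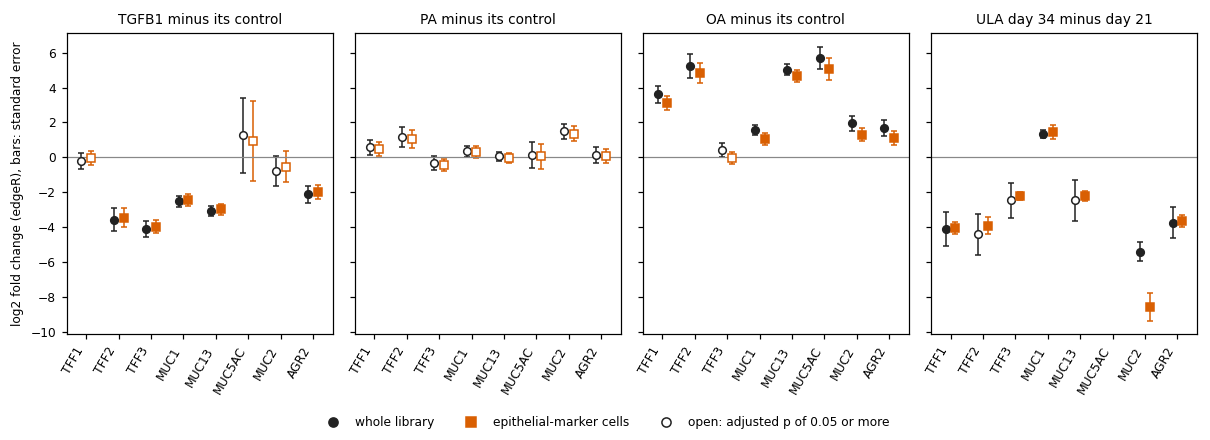
Log2 fold change with its standard error for 8 members in 4 comparisons, in whole libraries (circles) and in epithelial-marker cells (squares), with open symbols where the adjusted p was 0.05 or more. With OA the values of TFF1, TFF2, MUC13 and MUC5AC lie between 3.11 and 5.71 and TFF3 lies near 0, while with TGFB1 5 members lie between -4.10 and -1.98. The ULA value of MUC2 in epithelial-marker cells rests on 1 UMI on day 34.

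A UMI of these transcripts was detected in a larger share of cells with OA. Such a share also rises with the level per cell and with free RNA, and the part of each was not tested. To compare libraries of unequal depth, each cell was thinned to 1000 UMIs and shallower cells were left out, which kept 5209 of 5456 and 2993 of 3095 control cells and 2970 of 3089 and 3119 of 3223 OA cells. The share of cells with a TFF1 UMI was then 10.3% and 6.60% in the control libraries and 38.6% and 38.4% with OA. For TFF2 the shares were 3.84% and 2.29% against 33.0% and 36.4%, and for MUC13 2.01% and 1.38% against 42.3% and 28.6%. AGR2 was seen in 36.3% and 19.7% of control cells and in 61.1% and 65.8% of OA cells. For each of the 4 genes the groups did not overlap, with differences of means of 30.1, 31.6, 33.7 and 35.5 percentage points. An exact two-sided permutation test of 2 libraries against 2 cannot go below p = 0.333, which each of these differences reached. TFF3 was seen in 30.02% and 13.3% of control cells and 33.2% and 31.6% of OA cells, also separate, with a difference of means of 10.8 percentage points and the same p. Without thinning the TFF2 shares were 15.5% and 11.7% in the control and 61.6% and 62.2% with OA. In mesenchymal-marker cells of the control, thinned alike, TFF1 was seen in 0.664% and 0.179% of cells and TFF2 in 0.124% and 0.0471%. Median depth before thinning was 4026 and 8704 UMIs in those cells and 7483 and 15997 in epithelial-marker cells.

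Secretory transcripts were also uneven among the cells that carried them. In OA replicates 1 and 2 the 14 and 11 cells with most MUC5AC held at least as many MUC5AC UMIs as all other cells together, out of 112 and 237 cells with any. For TFF1 the corresponding numbers were 115 and 52 cells out of 2091 and 2113, and the highest cell held 4719 and 5092 TFF1 UMIs. Cells with a MUC5AC UMI carried TFF1 at 10852 and 7657 CPM, against 1493 and 1328 in the other cells of the same libraries, and TFF2 at 12928 and 9174 against 1803 and 2052. Their summed intestinal markers were at 14491 and 14462, below the 20764 and 17220 of the other cells. For MUC13 the order was the opposite, since intestinal markers were at 23628 and 21744 in cells with a MUC13 UMI and at 1130 and 1677 in cells without. TFF1 had the same order as MUC13 (22054 and 18824 with, 9575 and 4350 without), as did TFF2 (22597 and 18754 with, 10974 and 8033 without). So did TFF3, MUC2 and AGR2, while for MUC1 the OA replicates went opposite ways. Higher marker levels in these cells were not confined to the intestinal list. Summed hepatocyte markers were at 25216 and 24709 in cells with a TFF1 UMI and at 18154 and 16974 in cells without. TFF2, TFF3 and AGR2 had the same order for hepatocyte markers. For MUC13 the replicates went opposite ways (25756 and 23348 with, 15508 and 24633 without), as they did for MUC1, MUC5AC and MUC2. Cells with a UMI of a gene were deeper, with medians of 15714 and 16023 UMIs for MUC5AC against 9509 and 7226 for the rest, so these are descriptions of the cells and carry no test.

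**Figure D4:**
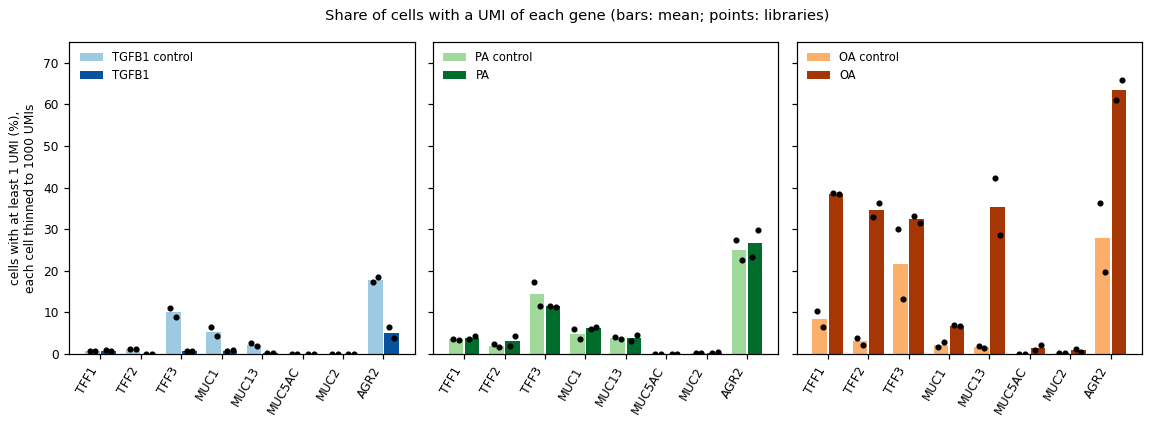
Share of cells with at least 1 UMI of each of 8 members after thinning each cell to 1000 UMIs, without shallower cells, as bars at the mean of 2 libraries with a point per library, for TGFB1, PA and OA beside their controls. TFF2 reaches a mean of 34.7% with OA against 3.07% in its control, and TFF3 a mean of 0.728% with TGFB1 against 10.0% in its control.

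With TGFB1 at 10 ng/ml 5 of the 8 members tested were lower. TFF2, TFF3, MUC1, MUC13 and AGR2 fell against the TGFB1 control, and none rose. TFF1, MUC5AC and MUC2 were not called. Of 19361 genes tested, 22.1% were called in either direction and 11.3% lower. Of the calls 48.96% were higher, and 31.6% with total-count scaling. The median log2 fold change was -2.32 over the 8 members and -0.05 over all genes tested.

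TFF3 was at 187 and 196 CPM in the control libraries and at 9.20 and 10.4 with TGFB1. TFF2 was at 19.04 and 39.6 and then at 1.59 and 2.88. Neither pair overlapped, and TFF3 had the larger change of the trefoil factors, -4.10 ± 0.47 on the log2 scale (adjusted p = 5.20e-05, edgeR), with TFF2 at -3.56 ± 0.64 (adjusted p = 0.00175, edgeR). In TGFB1 replicate 2, 1 cell held 63 of the 113 TFF2 UMIs, and without TGFB1 control replicate 2 the TFF2 change was -2.79. TFF1 was at 8.86 and 16.7 in the control and 11.8 and 8.01 with TGFB1, groups that overlap, with a log2 fold change of -0.21 ± 0.46 (adjusted p = 0.774, edgeR).

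MUC13 went from 50.4 and 38.8 CPM to 4.68 and 4.44, and MUC1 from 71.2 and 44.5 to 7.36 and 10.1. All TGFB1 libraries were below all control libraries for both membrane mucins, which fell by 3.08 ± 0.29 (adjusted p = 1.55e-05, edgeR) and 2.51 ± 0.32 (adjusted p = 1.12e-04, edgeR) on the log2 scale. The gel-forming mucins were too scarce to compare, with 12 MUC2 UMIs in the control and 8 with TGFB1, a ratio of levels of 0.545 (95% interval 0.193 to 1.45, counting error only), and with 1 and 3 MUC5AC UMIs. AGR2 was at 271 and 353 in the control and at 80.4 and 45.3 with TGFB1, a change of -2.13 ± 0.48 (adjusted p = 0.00673, edgeR). Without TGFB1 replicate 2 the AGR2 change was -1.76 with an adjusted p of 0.0775.

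In epithelial-marker cells the same 5 members were called lower, where 25.5% of genes were called in either direction and 13.2% lower. TFF3 was at 201 and 205 CPM in these cells in the control and at 10.4 and 12.3 with TGFB1 (log2 fold change -3.97 ± 0.37, adjusted p = 6.99e-06, edgeR). MUC13 was at -2.97 ± 0.32, TFF2 at -3.45 ± 0.56, MUC1 at -2.43 ± 0.35 and AGR2 at -1.98 ± 0.42, the last with an adjusted p of 0.0540 without TGFB1 replicate 2 (-1.62). TFF2 was at -4.14 without TGFB1 replicate 2 and at -2.71 without TGFB1 control replicate 2. Thinning to 1000 UMIs kept 6688 of 9615 and 8315 of 8505 control cells and 5875 of 6002 and 6803 of 6904 TGFB1 cells. TFF3 was then seen in 11.04% and 8.95% of control cells and in 0.642% and 0.815% of TGFB1 cells, and AGR2 in 17.4% and 18.4% against 6.41% and 3.88%. Both pairs were separate, at the smallest exact permutation p of 0.333. Unthinned, TFF3 was in 13.96% and 27.3% against 2.98% and 3.03%, while AGR2 was in 21.7% and 41.7% against 26.3% and 15.3%, groups that overlap. The mesenchymal marker list rose from a summed mean of 729 CPM to 1992, and epithelial-marker cells made up 84.4% and 92.5% of control cells and 72.6% and 83.1% of TGFB1 cells. Mesenchymal-marker cells were 2.64% and 1.92% of control cells and 4.13% and 5.56% of TGFB1 cells. Cells with at least 3 markers of each kind, in neither class, went from 1.65% and 2.62% to 15.8% and 8.65%. The intestinal markers were at 242 and 241 in the control and 92.4 and 86.4 with TGFB1, the cholangiocyte markers at 2358 and 2909 and then 1779 and 1590, and the hepatocyte markers at 2716 and 3985 and then 5400 and 4572. Within the hepatocyte list ALB went the other way, from 3.35 and 3.14 to 0.136 and 0.102, as did AFP (521 and 431 to 79.0 and 88.6) and TTR (381 and 547 to 165 and 197), as levels with no test. The epithelial list was at 5326 and 8133 and then 11833 and 9537, the squamous list at 14.4 and 16.3 and then 62.5 and 53.9, and the immune list at 228 and 199.5 and then 45.3 and 33.4, although PTPRC, the common marker of immune cells, had 0 to 2 UMIs in each of these libraries. The part of these lists in the members' fall was not tested.

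With PA at 500 µM none of the 8 members tested passed the threshold, where 0.0465% of all genes did. At an unadjusted p under 0.05 the edgeR count was 1 member, MUC2, and DESeq2 also called 0 members. MUC2 was at 1.74 and 5.28 CPM in the control and at 12.8 and 8.04 with PA, groups that did not overlap, with a log2 fold change of 1.49 ± 0.42 (adjusted p = 0.714, edgeR) that was 2.58 without PA control replicate 2. TFF2 was at 58.9 and 40.3 in the control and at 62.7 and 152 with PA, a log2 fold change of 1.16 ± 0.58 (adjusted p = 1, edgeR) that was 0.39 without PA replicate 2. With no filter on low counts, both TFF2 and MUC2 passed the threshold (adjusted p = 0.00948 and 0.000505). TFF1 was at 82.1 and 71.5 CPM in the control and at 112 and 108 with PA, groups that did not overlap, and it was not called (adjusted p = 1, edgeR). For the 3 members that follow the groups overlapped. AGR2 was at 513 and 451 against 412 and 623, TFF3 at 720 and 455 against 494 and 423, and MUC13 at 65.4 and 61.5 against 49.9 and 77.0. In epithelial-marker cells no member was called either, where 0.0947% of genes were.

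The treatment effects were compared directly as signed log2 fold changes, each against its own control. TGFB1, PA and OA each had a separate control, with mean TFF1 of 12.8, 76.8 and 213 CPM in that order. A difference between their effects cannot be told apart from a difference between these experiments. The OA effect lay above the TGFB1 effect for 7 of the 8 members tested. Here 31.8% of genes were called in either direction and 16.4% higher. The differences ran from 2.72 ± 0.97 for MUC2 to 8.79 ± 0.93 for TFF2 on the log2 scale. They are signed and do not rank sizes, since TFF3 moved by -4.10 with TGFB1 and by 0.44 with OA. MUC2 and MUC5AC had few UMIs in the TGFB1 experiment, 12 and 1 in the control and 8 and 3 with TGFB1, and MUC5AC was the member not called (4.45 ± 3.58, adjusted p = 0.376, edgeR). MUC2 lost this call under 8 of 10 alternatives, 6 of which each leave out 1 library, OA 1 or 2, OA control 1 or 2, TGFB1 1 or TGFB1 control 1 (2.04 to 2.89), and was at 3.76 without TGFB1 replicate 2 and 3.57 without TGFB1 control replicate 2. Without TGFB1 control replicate 2 TFF1 was at 3.13 and TFF2 at 8.01, and without OA control replicate 1 TFF3 was at 5.17 and AGR2 at 4.47. TFF3, which OA left without a detected change, differed by 4.54 ± 0.61 (adjusted p = 1.12e-04, edgeR). The OA effect exceeded the PA effect for TFF1, TFF2, MUC13 and MUC5AC, 4 of 8 members where 20.5% of genes were called in either direction and 10.1% higher (49.5% of the calls, and 31.4% with total-count scaling), with MUC13 at 4.98 ± 0.40 (adjusted p = 3.41e-05, edgeR). Without PA control replicate 2 MUC5AC lost that call (adjusted p = 0.143), and it was at 4.08 without OA replicate 2 and 6.27 without OA replicate 1. TFF2 was at 4.84 without PA replicate 2. Against PA, the TGFB1 effect was lower for TFF2, TFF3, MUC1, MUC13 and AGR2, where 8.79% of genes were called in either direction, 4.08% higher and 4.72% lower. TFF2 was at -3.95 without PA replicate 2 and -3.96 without TGFB1 control replicate 2, and AGR2 (-2.28 ± 0.65, adjusted p = 0.0467, edgeR) lost this call under 9 of 10 alternatives, 8 of which each leave out 1 library.

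The OA control was also set against untreated OS organoids, to show how far the control itself stood from organoids with no treatment. MUC13 was the 1 member called, lower in the control, where 0.444% of genes were called in either direction, 0.062% higher and 0.382% lower. It was at 106 and 137 CPM in untreated organoids and 43.3 and 37.3 in the control, a log2 fold change of -1.45 ± 0.27 (adjusted p = 0.0435, edgeR). The groups did not overlap, yet the call was lost with a replicate block (-1.47, adjusted p = 0.188, edgeR). It was lost with only the 2 groups fitted (-1.46, adjusted p = 0.319, edgeR). Without any 1 of the 4 libraries it was lost as well, with log2 fold changes from -1.68 to -1.17. The untreated libraries differed from each other for the trefoil factors, with TFF1 at 78.9 and 237, TFF2 at 18.2 and 59.7 and TFF3 at 946 and 2051. The OA libraries stood above the untreated ones for TFF1, TFF2 and MUC13 as levels. OA and untreated organoids were not tested against each other.

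In ULA organoids 4 of the 7 members tested were called between day 34 and day 21. TFF1, MUC2 and AGR2 fell and MUC1 rose. Of 18762 genes tested, 17.4% were called in either direction, 9.51% higher and 7.85% lower. Of the calls 54.8% were higher, and 68.3% with total-count scaling. None of the 4 was called with a replicate block, a fit that called 0 of all genes and so cannot single out these members. AGR2 was at 510, 393 and 628 CPM on day 21 and at 10.6 and 73.0 on day 34 (log2 fold change -3.74 ± 0.88, adjusted p = 0.0406, edgeR). TFF1 was at 80.0, 68.6 and 70.6 and then at 0.740 and 8.47 (-4.11 ± 1.00, adjusted p = 0.0446, edgeR). The day 21 libraries were close together, while day 34 replicate 1 was far below replicate 2. MUC2 went from 1385 UMIs in 3 libraries to 24 in 2, a ratio of levels of 0.0243 (95% interval 0.0155 to 0.0363, counting error only) and a log2 fold change of -5.42 ± 0.54 (adjusted p = 0.00177, edgeR). MUC1 was at 19.5, 14.02 and 20.7 and then at 57.1 and 41.6, the 1 member higher on day 34 (1.32 ± 0.23, adjusted p = 0.0101, edgeR). TFF2 (-4.41 ± 1.18, adjusted p = 0.0566), TFF3 (-2.46 ± 1.01, adjusted p = 0.151) and MUC13 (-2.46 ± 1.18, adjusted p = 0.206) did not pass (edgeR). None of their groups overlapped, a trait whose share over all genes was not counted.

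The 2 day 34 libraries differed in their share of epithelial-marker cells and in depth. Epithelial-marker cells were 4.09% of cells in replicate 1, 177 cells, and 29.4% in replicate 2, against 15.4% to 27.0% on day 21. The numbers moved with the threshold, to 77 of 4326 and 1933 of 12427 cells at 2 markers and to 313 and 5309 at 4, and the median depth of all cells was 14304.5 and 5959 UMIs in that order. Cells with at least 3 markers of each class made up 43.0% to 68.0% of cells in the ULA libraries and stand in neither class. As summed means, the 10 intestinal markers were at 408 CPM on day 21 and 25.3 on day 34, the hepatocyte markers at 2761 and 492, the mesenchymal markers at 2372 and 3458 and the squamous markers at 34.2 and 1435. Of these 4 lists the mesenchymal one overlapped between days. The immune list was at 168, 90.3 and 155 on day 21 and at 2.89 and 36.7 on day 34, with 0 to 4 PTPRC UMIs in each library. The part of these lists in the members' change was not tested. Without day 34 replicate 1, and then without day 34 replicate 2, the log2 fold change of TFF1 was -3.24 and -6.74. In that order AGR2 was at -2.94 and -5.72, TFF3 at -1.56 and -5.35 and MUC13 at -1.52 and -6.25. TFF2, not called with both libraries, was at -3.46 without day 34 replicate 1. Without replicate 2 its day 34 level rests on 1 UMI. DESeq2 called TFF2 lower (adjusted p = 0.0257), and TFF1 lost its call with total-count scaling (adjusted p = 0.0501, edgeR). Without day 21 replicate 1 or 3 only MUC2 was called, and without day 21 replicate 2 MUC1 and MUC2 were, while no member was called with a replicate block. In epithelial-marker cells 7 of 7 members were called, MUC1 higher and 6 lower, where 26.5% of genes were called in either direction. There AGR2 was at 1386, 1440 and 1646 CPM on day 21 and at 93.0 and 186 on day 34 (-3.67 ± 0.34, adjusted p = 2.02e-04, edgeR), and TFF3 at 127, 190 and 138 and then at 34.4 and 43.0 (-2.21 ± 0.25, adjusted p = 4.95e-04, edgeR). MUC1 lost its call in these cells without any 1 of 4 libraries, day 34 replicate 1 (0.50) and each day 21 library (1.41 to 1.55), and was at 2.07 without day 34 replicate 2. It also lost the call at thresholds of 4 markers (1.34, adjusted p = 0.0586, edgeR) and with a replicate block (1.35, adjusted p = 0.0589, edgeR). With any number of mesenchymal markers allowed, TFF3 (-2.65, adjusted p = 0.112, edgeR) and MUC13 (-2.67, adjusted p = 0.154, edgeR) lost theirs. TFF1 was at -4.86 and MUC13 at -2.92 without day 34 replicate 2. MUC2 had 1 UMI in these cells on day 34 and 1172 on day 21, a ratio of levels of 0.00257 (95% interval 6.5e-05 to 0.0143, counting error only). That 1 UMI was in replicate 1, the replicate with fewer of these cells, so that the ratio of the group means was 0.0149, and without replicate 2 the log2 fold change was -5.26. A difference between days cannot be told apart from the longer trypsin step that day 34 organoids had.

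Genes that work with the members were followed in 5 lists. With OA, 21.7% of all genes tested were called higher and 21.6% lower. Enzymes that build O-linked glycans, the sugar chains that mucins carry, were called higher for 15 of 22 tested and lower for 1, and the list's median log2 fold change was 1.32. GALNT3, which starts these chains, was at 305 ± 18.8 CPM (SD, n = 2) with OA and 57.2 ± 5.09 in the control, and GCNT3, which branches them, at 311 ± 21.9 and 14.7 ± 4.47. Both were far outside the replicate spread, with log2 fold changes of 2.75 ± 0.21 and 4.72 ± 0.51. The list of disulfide formation partners in the endoplasmic reticulum, called disulfide partners below, also holds the chaperone HSPA5. Of its genes 10 of 13 were higher (6 of 13 with total-count scaling), among them ERO1A (1.48 ± 0.24), HSPA5 (1.29 ± 0.27) and PDIA3 (1.40 ± 0.30). Of the goblet cell list 9 of 20 were higher and 2 lower, led by BCAS1 (2.69 ± 0.24), TPSG1 (3.52 ± 0.45) and AGR3 (1.96 ± 0.36), a close relative of AGR2. Of 8 gastric and foregut mucosal genes tested 5 were higher and none lower, with VSIG1 (2.67 ± 0.28) and CLDN18 (2.65 ± 0.39) among them. Of 11 other mucins tested 3 were higher and 2 lower, shares near those of all genes. MUC17, a membrane mucin of enterocytes, was at 58.7 ± 10.6 with OA and 2.23 ± 0.76 in the control. These counts are for whole libraries, whose composition moved with OA. In epithelial-marker cells 19.2% of all genes were higher with OA and 17.1% lower. There the O-glycan enzymes had 14 higher and 2 lower of 22, and the disulfide partners 8 higher and none lower of 13. The goblet list had 8 higher and 3 lower of 18, the gastric list 5 and 1 of 7, and the other mucins 3 and 2 of 11.

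With TGFB1 the lists divided, where 10.8% of all genes tested were called higher and 11.3% lower. The goblet cell list had 5 of 20 genes lower and none higher, among them SPDEF, a transcription factor of goblet cells (2.36 ± 0.15 CPM in the control and 0.224 ± 0.10 with TGFB1, SD, n = 2), AGR3 (-2.36 ± 0.38 on the log2 scale) and LRRC26 (-2.84 ± 0.46). The gastric list had 3 of 8 lower, VSIG1 (-5.05 ± 0.38), SULT1C2 and ANXA10, and none higher. With total-count scaling, and likewise with DESeq2, 5 of the 8 were lower, and in epithelial-marker cells 4 of 7 were lower and 1 higher. Of the disulfide partners 9 of 13 were higher and none lower (7 of 13 with total-count scaling), led by PDIA6 (1.33 ± 0.28), HSPA5 (1.27 ± 0.27) and ERP44 (1.33 ± 0.30). O-glycan enzymes were called in both directions, 6 higher and 5 lower of 22, and 1 higher and 5 lower with total-count scaling. Of 11 other mucins 1 was higher, MUC12 (1.53 ± 0.24, adjusted p = 0.000702, edgeR), and 1 lower, MUC15 (-2.31 ± 0.76, adjusted p = 0.0440, edgeR). With PA no gene of the 5 lists was called, by edgeR or by DESeq2. On ULA day 34 the goblet list had 6 of 17 lower and 1 higher, where 7.85% of all genes were lower and 9.51% higher, with ZG16, a goblet cell secretory protein, at 10.8 ± 1.67 (SD, n = 3) on day 21 and 0.399 ± 0.06 (n = 2) on day 34. The gastric list had 2 of 7 lower and none higher, and the O-glycan enzymes 3 higher and 3 lower of 20 (3 and 7 with DESeq2). The disulfide partners had 1 higher and 2 lower of 13 and the other mucins 1 lower of 8. With a replicate block 0 genes were called between the days in whole libraries, these lists included. In epithelial-marker cells 13.4% of all genes were higher and 13.1% lower. There 10 of 15 goblet genes were lower and none higher, and 5 of 7 gastric genes were lower and 1 higher. The O-glycan enzymes had 3 higher and 6 lower of 19, the disulfide partners 1 and 2 of 13, and the other mucins 2 and 2 of 7.

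Over the 14 OS libraries the genes whose log2 level was most like that of AGR2 were MEP1A (Pearson r = 0.978), CEACAM6 (0.974), FABP1 (0.973), IHH (0.972) and PLA2G12B (0.971). For TFF3 they were LYZ (0.961), LINC00467 (0.955), DDC (0.949), AGR2 itself (0.937) and CDH17 (0.937), and for TFF2 FXYD3 (0.962), PLAC8 (0.956), CBLC (0.950) and CYP2C18 (0.943). Among the members, TFF2 was most like MUC13 (0.918) and TFF1 (0.914), and TFF3 most like AGR2 (0.937). These libraries share experiments and fall into groups of 2, so the values of r describe these 14 libraries and have no p.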

How the data were processed

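For each of 19 libraries the authors deposited a matrix of UMI counts, whole numbers without normalization. Per the file headers, the matrices come from software 3.0.2 for the ULA, TGFB1 and PA matrices and Cell Ranger 6.0.2 for the OA and untreated ones. bcl2fastq, Cell Ranger 3.0.2, Scanpy and GRCh38 are listed in the submitters' processing notes. The genes and the lists were chosen with earlier results of these data known. Cells under 500 genes or over 20% mitochondrial UMIs were left out, no doublet caller was run (leaving out the cells of most UMIs was an alternative), and counts were summed per library over 32703 shared genes, which hold 95.4% to 100.0% of the kept UMIs. Levels are CPM of that sum or, for a set of cells, of the UMIs of those cells alone. They come from 3′ ends and are not compared between genes. edgeR 4.0.16 (quasi-likelihood, TMM, filterByExpr with a minimum count of 10) was fitted to the 14 OS libraries together and to the 5 ULA libraries alone, with no replicate block. Benjamini-Hochberg adjustment covered all genes tested, with a threshold of 0.05. The SE of a log2 fold change is its absolute value divided by the square root of the F statistic of the test. It therefore rests on the spread over all libraries fitted together. The scripts were tested on simulated data. Total-count scaling in place of TMM shifts the median log2 fold change of all genes by -0.34 for OA, -0.19 for TGFB1, 0.12 for ULA, -0.15 for the OA control against untreated, -0.28 for OA minus PA, -0.15 for OA minus TGFB1 and -0.13 for TGFB1 minus PA. Genes named from the lists are up to 3 called ones per list and comparison with the smallest adjusted p; likeness was Pearson r of log2(CPM + 1) for the 3 members of highest mean level, and 1 gene that this rule names is not reported here. Alternatives were DESeq2 1.42.0, other scalings, filters and marker thresholds, and leaving out each library. R 4.3.3, Python 3.11.15 and numpy 2.4.6 were used. Intervals and floors cover counting error only.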

Additional observations from a re-analysis of the deposited data

How the results depend on the processing

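Leaving out a library leaves 1 sample in an arm (2 on ULA day 21), assumed to vary like the other groups. Members called with TGFB1 (5) and with OA (7) stayed between 4 and 5 and between 6 and 7 under every alternative run on whole libraries, and no called member changed direction. The counts in other comparisons moved more. Against untreated organoids the OA control had 1 member called, 4 with no filter on low counts, and 0 with only the 2 groups fitted, the stricter cell filter, the replicate block, the crossed replicate block and each library left out (0 to 0). With PA 2 members were called with no filter and 0 under the other alternatives. On ULA day 34 the count of 4 became 2 with no filter, 2 with the stricter cell filter, 2 without the cells of most UMIs, 0 with the replicate block and 1 to 7 with a library left out. In epithelial-marker cells the OA count of 7 was 5 with the replicate block and 4 to 6 with a library left out, and the ULA count of 7 was 5 with any number of mesenchymal markers and 6 to 7 with a library left out. TFF3 with OA changed sign without passing the test: whole libraries gave -0.0031 to 1.08 with a library left out, and epithelial-marker cells -0.36 to 0.41, 0.040 at thresholds of 2 markers and 0.22 with any number of mesenchymal markers, an alternative chosen after seeing the data. TFF1 with TGFB1 was 0.24 without the cells of most UMIs and -0.65 to 0.48 with a library left out. The cause of these changes was not tested.

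Counts over all genes moved by more than 1.5 times in several fits. PA had 9 genes called, 51 with DESeq2, 162 with no filter, 16 with only the 2 groups or total-count scaling, 4 with the replicate block and 0 to 20 with a library left out. The OA control against untreated had 86, 701 with DESeq2, 523 with no filter, 293 with total-count scaling, 0 with the replicate block or only the 2 groups, 17 with the crossed block and 0 to 170 with a library left out. ULA had 3257, 0 with the replicate block and 658 to 6748 with a library left out, TGFB1 4281 and 1703 to 5579, and OA 8377 and 5160 to 6558. In epithelial-marker cells PA had 17, 1 with the replicate block, 6 with any number of mesenchymal markers and 0 to 30 with a library left out, ULA 4228, 1861 with the block and 2102 to 5457, TGFB1 4585 and 1978 to 5873, and OA 6508 and 3428 to 4492. OA minus PA had 3961 and 2102 to 3388, and TGFB1 minus PA 1702, 1087 with the block and 757 to 2773. Samples share only a replicate number: the correlation of replicate 1 deviations from the group means was -0.19 for TGFB1, 0.08 for PA, 0.04 for OA, -0.41 for the OA control and untreated, and -0.29 for ULA. With crossed numbers, also chosen after seeing the data, 4171 genes and 5 members were called with TGFB1. MUC5B in all groups, and MUC5AC and MUC2 in the TGFB1 comparison, had too few UMIs to compare, and MUC5AC had 0 on ULA day 34.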
